A study of Capra hircus with 6 samples.

Results

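The mammary gland of 6 lactating goats (Capra hircus) was described here as 1 tissue, by ranking the hybridization signal of every probe on the array. There were 3 goats of the Low CSN1S1 genotype and 3 of the High CSN1S1 genotype, which the scanner file headers code FF and AA. CSN1S1 encodes alpha-s1-casein, and the genotypes are named for the amount of it that the goats make. Food had been withheld from every goat for 48 h, and fed goats are not analysed here. Each Low goat was hybridized with 1 High goat on an array, and each of the 3 pairs (A, B and C) was repeated on a second array with the Cy5 and Cy3 dyes exchanged. That gives 6 arrays and 12 readings, 2 per goat, and all 12 were used, with both genotypes pooled. The labels used here give no breed, age or stage of lactation.

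The description covers all 6 arrays of the series, of 6, and on them all 8379 probes with an identifier, each spotted in duplicate. The level of a probe is the mean over the 12 readings of log2(signal minus local background), the duplicate spots being averaged first. A probe was called above background in a reading where its signal exceeded the local background by 2 background standard deviations. A level of this kind depends on the probe as well as on its transcript, and probes of the same gene often lay far apart, as described below. The order is therefore given as an order of probe signals, not of transcript abundance. Values within 1 probe, between goats, arrays or dyes, do not have this limit.

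In lactation the alveolar epithelium of the gland turns most of its synthesis to a small set of secreted products. These are the caseins and whey proteins, lactose, which is made in the Golgi with alpha-lactalbumin as a cofactor, and fat, which leaves the cell wrapped in membrane as milk fat globules. Myoepithelial cells around the alveoli contract to eject the milk, and stroma, vessels, fat cells and leukocytes make up the rest of the tissue. In such a bulk sample a low signal from fewer cells of a type and from less RNA per cell cannot be told apart.

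Levels over the 8379 probes ran from 0.14 to 15.35 on the log2 scale, with a median of 7.42 and an SD of 2.37. The lowest 10% of probes lay under 4.36 and the brightest 10% above 10.47, a 69.1-fold span in intensity. Of all probes, 5156 (61.5%) were above background in 12 of 12 readings and 6763 (80.7%) in at least 6. Another 684 probes (8.16%) were above background in 0 of 12. Detection differed by dye, between 82.3% and 87.4% of probes in the 6 Cy5 readings and between 66.3% and 77.3% in the 6 Cy3 readings. Beside this stood the local background, with a median of 40.6 to 52.1 intensity units in Cy5 and 65.0 to 92.2 in Cy3. Its part in the difference was not tested. Among spots without a probe, 0.883% to 2.76% of the 906 blank spots and 0% to 0.391% of the 1536 empty spots passed per reading. They were called as single spots. As they hold no probe, they do not measure false detection from a probe binding other transcripts.

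**Figure D1:**
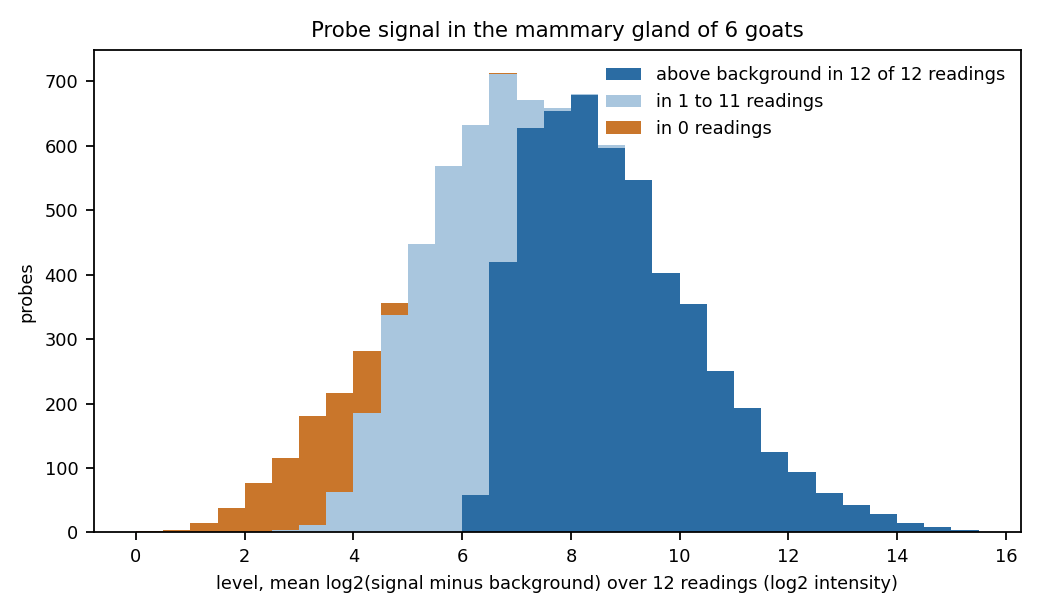
Number of probes (y axis) by level, the mean log2(signal minus background) over 12 readings (x axis, bins of 0.5), stacked by the number of readings above background. The 5156 probes above background in 12 of 12 readings fill the upper range, and the 684 above it in 0 readings have a median of 3.31 and reach up to 6.76.

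The 30 brightest probes were all above background in 12 of 12 readings. Of them, 25 have 1 gene symbol, 4 have none, and 1, at a level of 14.25, is annotated to both CSN3 and CSN2, the kappa- and beta-caseins. The last of them, a probe of MCM7, had a level of 13.92, and the next probe in order, which has no name, had 13.90. That gap is narrower than the SD of the MCM7 probe over the 6 goats, 0.62, so membership near the boundary is not firm. Counted by gene, with the brightest probe of each, 9 of the 30 brightest genes belonged to one of the 30 gene lists described below.

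At the very top stood the brighter probe of PAGR1, a subunit of histone methyltransferase complexes, whose other probe had a level of 10.69. The brighter probe read 15.39, 15.21 and 15.40 in the Low goats of pairs A, B and C, against 15.34, 15.34 and 15.43 in the High goats. These values were close together, with an SD of 0.08 over the 6 goats, but a spot of this probe was at the scanner's ceiling in 5 of 12 readings, so the level is a lower bound there and the spread is too small. CCDC174 came next at 15.13 ± 0.18 (SD, n = 6 goats), with 3 readings at the ceiling. ENO2, the enolase best known from neurons, followed at 15.08 ± 0.16. A spot was also at the ceiling in 1 reading each for ENO2, ZEB1, MRGBP, CFAP61, PARP10 and PARD6A, so these levels are lower bounds too.

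Regulators of transcription and chromatin were among the brightest 30. ZEB1, a repressor known from epithelial to mesenchymal transitions, had 14.85 ± 0.37, and MRGBP, of a histone acetyltransferase complex, 14.83 ± 0.38. PHF1, an accessory protein of Polycomb repressive complex, had 14.39 ± 0.08, and GLI3, a transcription factor of the Hedgehog pathway, 14.18 ± 0.94. PHF1 differed little over goats, but each goat is a mean of 2 arrays, and its readings ran from 13.50 to 15.18. GLI3 ran from 13.05 to 15.21 over goats.

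Genes of the respiratory chain, the cytoskeleton and the endoplasmic reticulum were also among the 30. Lists for such genes are described below, but ARPC1B, TMX1 and KRTCAP2 are in no list. NDUFB1, a subunit of complex I, had 14.58 ± 0.61, and COX8A, of cytochrome c oxidase, 13.90 ± 0.83. MYL6, the light chain of non-muscle and smooth muscle myosin, had 14.53 ± 0.37, and ARPC1B, of the actin-branching Arp complex, 14.23 ± 0.57. In the endoplasmic reticulum act TMX1, a thioredoxin-like membrane protein (14.28 ± 0.31), FKBP2, a prolyl isomerase (14.00 ± 0.48), and KRTCAP2, of the oligosaccharyltransferase that attaches N-glycans (13.93 ± 0.65). PSMC5, an ATPase of the proteasome, had 13.82 ± 0.29.

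Membrane, signalling and immune genes were there too. SLC7A4, of a family of amino acid transporters, had 14.80 ± 0.35, GIPC1, a trafficking adaptor, 14.77 ± 0.34, and ADCY4, an adenylyl cyclase, 13.95 ± 0.67. TM7SF2, a reductase of cholesterol synthesis, had 14.46 ± 0.66, and PARD6A, of the apical polarity complex, 14.36 ± 1.07. BOLA-DMA, which helps load peptides on class II MHC molecules, had 14.28 ± 0.36, PARP10, an ADP-ribosyltransferase, 14.40 ± 0.72, and IFI35, an interferon-induced protein, 13.87 ± 0.15. The other probe of PARP10 was at 11.48. The remaining genes among the 30 were CFAP61, of cilia and flagella (14.45), MDGA1, a cell-surface protein studied in neurons (14.26), VTN, the plasma protein vitronectin (14.05), DUS1L, which modifies tRNA (13.94), MCM7, of the replicative helicase, and the milk proteins PAEP and CSN3.

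Milk proteins were the list with the most of its members near the top among those with more than 3 probes. Their 14 probes, for 13 genes, had a median level of 10.48, which is percentile 90.0 of all probes. Of them, 7 were in the brightest 10%, which holds 9.99% of all probes. Above background in 12 of 12 readings were 13 (92.9%), against 61.5% of all probes. Below it throughout were 0, against 8.16% of all probes. The products that define a lactating gland were therefore detected, which does not rank them against genes of other tissues, described below. The probe annotated to both CSN3 and CSN2, brighter than all 14, is not in the list. Probes with several gene symbols entered no list.

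PAEP, the gene of beta-lactoglobulin, the main whey protein of ruminants, read 13.75, 13.58 and 13.68 in the Low goats, against 14.41, 13.48 and 14.39 in the High goats. The Low and High goats overlapped. The brighter probe of CSN3, the kappa-casein that coats casein micelles, read 14.56, 13.50 and 13.09 in the Low goats, against 14.41, 13.78 and 13.21 in the High goats, so that the members of a pair lay nearer to each other than the pairs did. A second CSN3 probe was at 11.22 ± 0.66, lower by 2.54 than the first.

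CSN1S2, the alpha-s2-casein, read 14.74, 12.83 and 12.44 in the Low goats, against 13.94, 12.26 and 12.76 in the High goats. CSN1S1, whose genotype defines the groups, read 11.13, 11.81 and 12.28 in the Low goats, against 13.72, 14.64 and 15.06 in the High goats. Its mean of 13.11 thus lies between the genotypes and is typical of neither, and its SD of 1.60 over the 6 goats was the highest of any gene named here. LALBA, alpha-lactalbumin, read 13.75, 12.47 and 13.32 in the Low goats, against 13.02, 11.47 and 13.31 in the High goats, and the lowest value of each genotype was in pair B.

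The other secreted proteins were dimmer. GLYCAM1, a mucin-like milk glycoprotein, had 10.67 ± 0.19, PIGR, the receptor that carries immunoglobulin A into milk, 10.29 ± 0.31, and CLU, clusterin, 10.28 ± 0.62. The defence proteins lactoperoxidase (LPO, 8.29 ± 0.26) and lactoferrin (LTF, 8.11 ± 0.70), with osteopontin (SPP1, 8.03 ± 0.92), lay above the median of all probes, whereas transferrin (TF, 7.31 ± 0.33) lay just under it. CP, ceruloplasmin, at 4.27 ± 1.02, was above background in 2 readings.

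**Figure D2:**
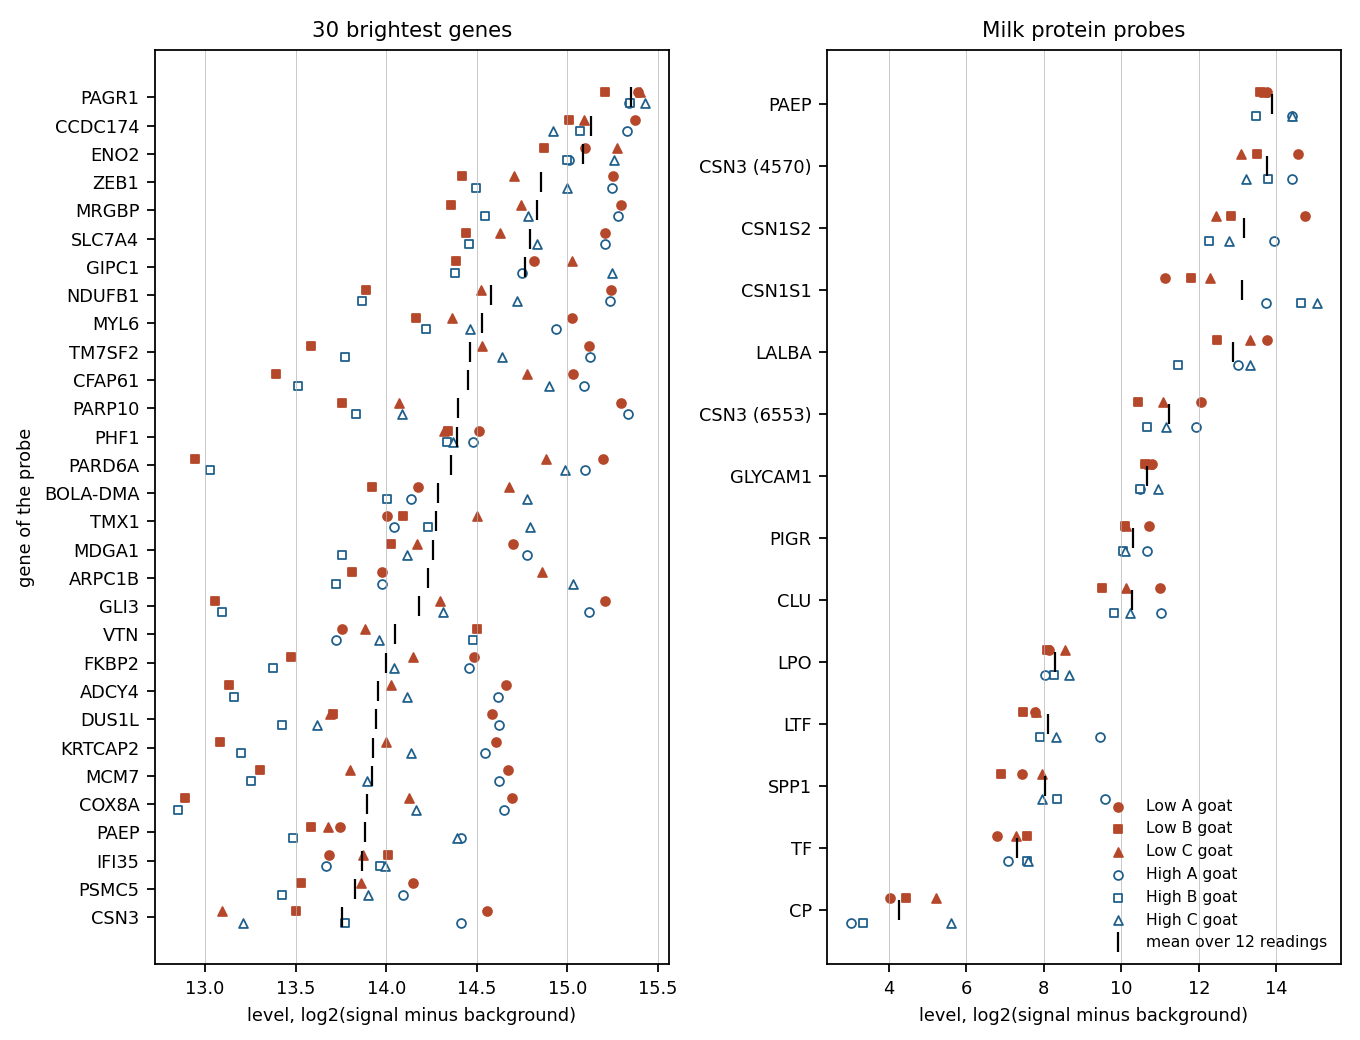
Level in each goat (x axis, log2 of signal minus background, mean of its 2 readings) for the 30 brightest genes (left) and the 14 milk protein probes (right, last 4 digits of the probe ID where a gene has more than 1), with filled symbols for Low goats, open ones for High goats and a shape per pair. The 2 goats of a pair lie close together for most genes, as for PARD6A, whereas for CSN1S1 the 3 High goats lie above the 3 Low goats.

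The genes that make milk fat and lactose did not stand together near the top. The 26 probes of fatty acid synthesis and uptake had a median at percentile 32.7 (level 6.33), and 5 of them (19.2%) were above background in 0 readings, against 8.16% of all probes. The brightest were MGLL, a monoglyceride lipase, at 10.98, DGAT1, which makes triglyceride, at 10.40 (readings from 7.96 to 12.88), and PGD, which supplies NADPH, at 10.27. FASN, fatty acid synthase, had 9.34 and LPL, the lipase that frees fatty acids from blood lipids, 9.03. ACLY, which makes cytosolic acetyl-CoA, had 4.73 with 2 readings above background. Both probes of ELOVL5, a fatty acid elongase, and the probe of ME1, malic enzyme, were never above background.

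The 14 probes for proteins of the milk fat globule membrane had a median at percentile 50.6, about the middle of the array. ANXA2, an annexin, had 11.70 ± 0.29, BTN1A1, butyrophilin, 9.65 ± 0.43, and MFGE8, lactadherin, 8.92 ± 0.47. XDH, which binds butyrophilin at the droplet surface, had 5.10 with 4 readings above background. Of 2 probes of CD36, a fatty acid receptor of the globule membrane, 1 passed in 7 readings (5.59) and the other in 0 (3.34).

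The 11 probes of glucose uptake and lactose synthesis had a median at percentile 63.5. LALBA led them, followed by GALT of galactose metabolism (10.53 ± 0.20) and HK1, hexokinase (9.49 ± 0.28). B4GALT1, the galactosyltransferase that binds alpha-lactalbumin, had 8.26, SLC2A1, the glucose transporter, 6.33, and PGM1, phosphoglucomutase, was never above background. The 8 probes of amino acid transport had the lowest median of the 30 lists, at percentile 28.2, with SLC38A3, a glutamine transporter, brightest at 9.33. SLC7A4, among the 30 brightest genes above, is not in this list.

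The lists of the secretory and synthetic machinery held bright and undetected members side by side. Chaperones and folding enzymes of the endoplasmic reticulum had a median at percentile 63.8 over 18 probes. FKBP2 led, and MANF (10.70) and CALR, calreticulin (10.13), followed. HSPA5, the main chaperone of that compartment, had 5.85, and DNAJB9, one of its co-chaperones, was never above background. Translocation and vesicle transport lay at percentile 45.3 over 38 probes, from SRP19 and SRP14 of the signal recognition particle (11.77 and 10.76) to KDELR3, SEC31A of the COPII coat and GOLGB1 of the Golgi, 3 probes that passed in 0 readings.

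Cytosolic ribosomal proteins had a median at percentile 70.4 over 45 probes, with 10 of them in the brightest 10%. RPS18 (12.36), RPS16 (12.04) and RPL23 (11.81) were brightest. RPL28 had a probe at 8.32 that passed in 12 readings and another at 2.25 that passed in 0. Oxidative phosphorylation also had 10 probes in the brightest 10%, of 50, with a median at percentile 59.2 and UQCRFS1, the Rieske protein of complex III, never above background. Mitochondrial ribosomal proteins (percentile 44.5, 55 probes), translation factors (47.0, 38 probes) and the proteasome (45.5, 36 probes) lay near the middle of the array.

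Each of these lists names machines whose subunits are made by nearly every cell. Even so, EIF3I, EIF1AX and a probe of EIF2S3 among the initiation factors, and PSMD12, PSMC2 and PSMC6 among the proteasome subunits, were above background in 0 of 12 readings. Such probes are therefore given only as not detected, which says nothing of whether the transcript was present.

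Some probes for markers of each cell type listed were above background, at levels spread over much of the range. The same held for genes best known from other organs, described below. A marker's signal here thus does not by itself show that its cell type was present. The luminal epithelium, the cell type that secretes milk, had its 16 probes above background in at least 6 readings, against 80.7% of all probes, with a median at percentile 55.6. CLDN4, a tight-junction claudin, had 11.51 ± 0.14, STAT5B, a transcription factor of the prolactin pathway, 10.32 ± 0.16, and the keratin KRT7 9.51 ± 0.14. Other members were dimmer: the keratins KRT18 and KRT8 had 7.38 and 6.55, ELF5 and PRLR, the prolactin receptor, 7.05 and 6.99, STAT5A 5.83 and a second CLDN4 probe 5.98. The 7 probes of myoepithelial and smooth muscle markers had a median at percentile 79.7, led by the smooth muscle actin ACTA2 (10.52 ± 0.20) and the basal keratin KRT14 (9.85 ± 0.15). ACTG2, another actin of that list, had 3.96 with 1 reading above background.

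Leukocyte markers, 30 probes, had a median at percentile 55.2. ITGB2, the integrin chain shared by leukocytes, had 12.42 ± 0.43, CD74, the class II invariant chain, 11.72 ± 0.76, and CD53 10.34 ± 0.47. Of T-cell genes, CD3E had 8.85 and CD6 7.17, each in 12 readings, whereas CD5 and CD2 were never above background. LCP2 was never above background either. PTPRC, the pan-leukocyte antigen, had 6.10 with 9 readings above background. MZB1 and IGHG1, of antibody-secreting cells, had 12.09 and 10.71, and JCHAIN, which joins immunoglobulin chains, 5.50.

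Among stromal genes, the proteoglycan DCN had 12.01 ± 0.17 and FBLN1, fibulin, 11.39 ± 0.19, whereas COL3A1, a fibrillar collagen, was never above background. The fibroblast list as a whole had a median at percentile 44.9 over 14 probes. The 11 probes of fat cell markers had a median at percentile 64.8, with LEP, leptin, brightest at 9.22. ADIPOQ, adiponectin, had 1 probe at 8.90 and the other at 4.16 with 1 reading above background, and FABP4, a fatty acid carrier, and AQP7, a glycerol channel, had 5.53 and 5.00, passing in 5 and 3 readings. Endothelial markers were dim, with VWF at 7.32, TIE1 at 6.75 and CDH5 at 6.61, these 3 in 12 of 12 readings, and TEK at 5.16 in 4. Of 3 red cell markers, ALAS2, of heme synthesis (8.92), and HBE1, an embryonic globin (8.78), passed in 12 readings, and HBB, the adult beta-globin, had 4.93 and passed in 4.

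Genes best known from other organs stood no lower than the rest of the array. The 82 probes of 6 lists (skeletal and heart muscle, liver, brain, eye, hormones and digestive enzymes, testis and egg) had a median at percentile 57.0. Of them, 53 (64.6%) were above background in 12 of 12 readings, against 61.5% of all probes, and 5 (6.10%) in 0, against 8.16%. In the brightest 10% were 14 (17.1%), against 9.99% of all probes. The brain list stood highest, at percentile 75.4 with 6 of 15 probes in the brightest 10%, among them ENO2, STMN2, stathmin of neurons (12.25 ± 0.47), and GAD2, which makes the transmitter GABA (11.96 ± 0.61). With levels centred on their print block, as described below, the brain list's median was at percentile 65.0.

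Other examples were MYL3, a light chain of heart and slow muscle myosin (12.63 ± 0.60), ZP3, of the egg coat (11.49 ± 0.10), POMC, the precursor of pituitary peptides (11.29 ± 0.51), and CRYAA, a lens crystallin (10.96 ± 0.59). Over the 6 goats ZP3 ran from 11.35 to 11.63 and MYL3 from 11.85 to 13.06, so these signals were high in every goat, while the single readings of ZP3 ran from 10.82 to 12.45.

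**Figure D3:**
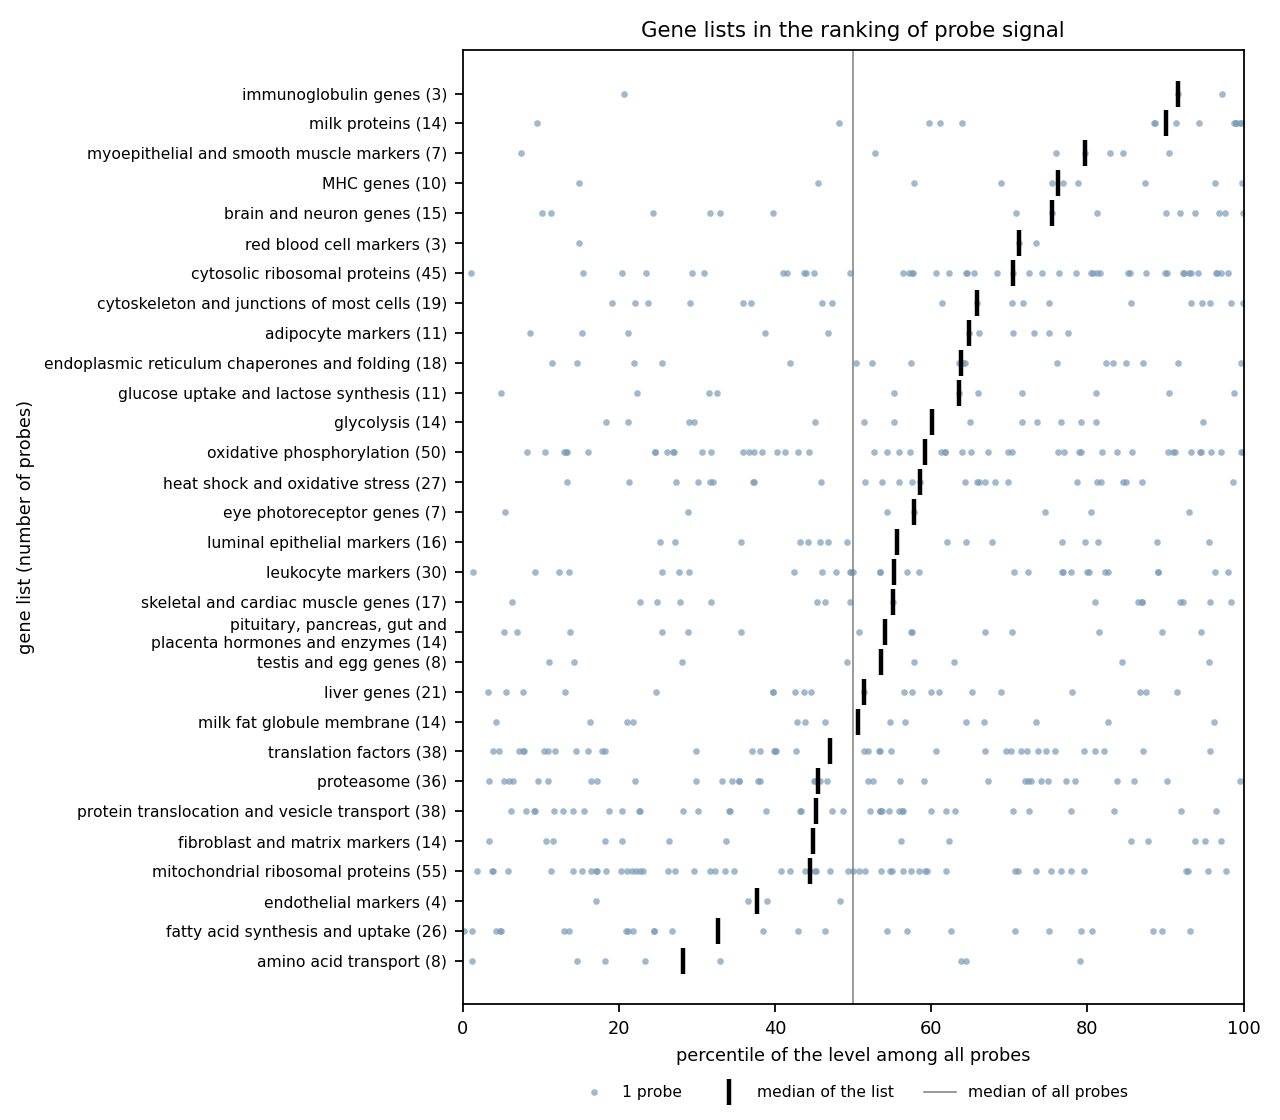
Percentile of the level among all 8379 probes (x axis) for each probe (points) of 30 gene lists (y axis, number of probes in brackets), with the median of each list as a black bar and the median of all probes as a grey line. Milk proteins lie at percentile 90.0 and amino acid transport at 28.2, and each list of more than 10 probes spreads over much of the range.

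The middle of the ranking was taken as the 10 genes nearest the median rank. They were IDH2, an isocitrate dehydrogenase of mitochondria, UNC50, PLAU, the urokinase protease, ICOS and CD40, receptors of T and B cells, MYT1, a transcription factor of the nervous system, TEDC2, EFS, an adaptor of focal adhesions, DHX34, an RNA helicase, and MRPS31 of the mitochondrial ribosome. Their levels were 7.42 to 7.43, and each was above background in 12 of 12 readings. EFS had 6.83 in its lowest goat and 7.79 in its highest, and TEDC2 7.26 and 7.66, so the order among the 10 lies within the spread between goats.

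Probes without a gene symbol were as frequent at the top as elsewhere. They made up 16.7% of the 837 probes in the brightest 10%, 14.2% of the 837 in the middle 10% and 19.0% of the 684 never above background, against 17.3% of all probes. The never-detected probes had a median level of 3.31, and their values have no order, since each is within the noise of the background. Their spread over goats was larger, with a median SD of 0.66, against 0.35 in the brightest 10%.

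Genes with several probes show how far the level depends on the probe. There were 302 such genes, 300 of them with 2 probes. Between the brightest and the dimmest probe of a gene the median gap was 1.79 on the log2 scale, which is 3.46-fold, and in 137 genes (45.4%) it was over 2. In 97 genes it was under 1. Across the genes with 2 probes the levels of both correlated with a Pearson r of 0.27 and a Spearman rho of 0.26, a description across genes, which are not independent replicates, whose 2 probes share arrays and readings. In 23 genes 1 probe was above background in 12 of 12 readings and another in 0.

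The widest measured gaps, whose order is not firm since dim probes lie near background, were in WWC2, a protein of the Hippo pathway (13.24 and 2.91), CDC16, of the anaphase-promoting complex (10.19 and 2.16), TRAPPC3, of a vesicle tethering complex (13.59 and 5.67), SVIL, supervillin (12.65 and 5.23), and NAAA, a lysosomal amidase (10.81 and 3.42). Between goats the WWC2 probes ran from 12.61 to 13.54 for the bright one and from 2.41 to 3.44 for the dim one. Single readings of the bright probe ran from 11.88 to 14.20. For WWC2 the probes thus lay further apart than the goats.

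**Figure D4:**
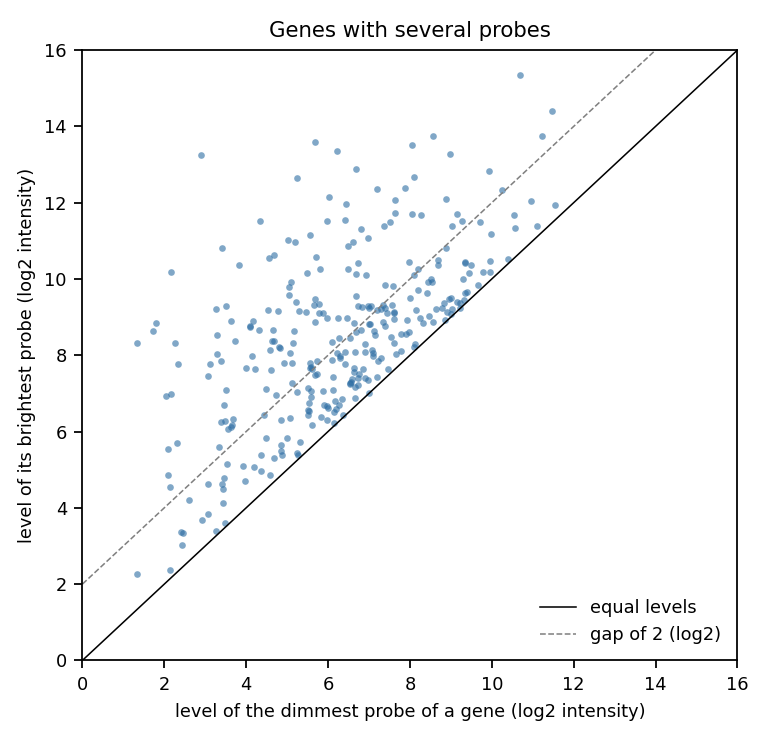
Level of the brightest probe (y axis) against the dimmest probe (x axis) of each of 302 genes with several probes, both as mean log2 intensity over 12 readings, with the line of equal levels and a dashed line at a gap of 2. In 137 genes the point lies above the dashed line, and the median gap is 1.79.

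Readings that shared no goat, array or dye correlated over probes with a Spearman rho of 0.916 to 0.971. Of the 30 brightest probes, which were chosen on the mean of the same readings, 25 to 30 were among the brightest 100 of each reading. Duplicate spots within a reading differed by a median of 0.07 to 0.09 on the log2 scale for probes above background in 12 of 12 readings.

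Readings of the same array were closer to each other than readings of the same goat. Differences were taken over probes above background in 12 of 12 readings, with each reading centred on its median, and rho over all probes, without centring. The 2 goats on 1 array differed by a median of 0.17 per probe (rho 0.979 to 0.992 over the 6 arrays). The same goat, labelled with the other dye on the other array, differed by 0.40 (rho 0.926 to 0.974). Different goats on different arrays with the same dye differed by 0.47. These are descriptions over probes of the same readings, and array and dye change together in the comparison within a goat.

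For the 5156 probes above background in every reading, the median range over the 6 arrays was 1.11, and the median gap between the 2 goats of a pair, whose arrays are shared, was 0.08. The brightest 10% varied more between arrays, with a median range of 1.42, and 607 of its 837 probes had a range over 1. TM7SF2 is an example. Its array means were 15.05 and 15.20 for pair A, 14.94 and 12.42 for pair B and, on the dimmer array, 14.17 for pair C. A single array of pair B was low, and the goats of that pair, with 13.58 in the Low and 13.77 in the High goat, were the lowest of the 6.

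Most of the bright genes that varied most between goats also varied widely between arrays. PARD6A read 15.20, 12.94 and 14.88 in the Low goats of pairs A, B and C, against 15.10, 13.02 and 14.99 in the High goats, with a range of 3.34 over arrays, and the goats of pair B were the lowest. RPS15, a ribosomal protein (SD 1.35 over goats), MIF, a cytokine (1.14), NUDCD3 (1.12), PRMT2, an arginine methyltransferase (1.09), CAPG, an actin-capping protein (1.09), NDUFA11, of complex I (1.06), and TOP3B, a topoisomerase (0.98), had array ranges of 2.51 to 3.44. CSN1S2, with an SD of 0.97, completed the 10 together with CSN1S1. In CSN1S1 the spread lay between the goats of a pair, as the values above show, and its range over arrays was 2.00.

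Place on the slide also moved with the level. The slide was printed in 48 blocks, 12 rows of 4. The median level of a block ran from 6.23 to 8.49, so that a probe in the brightest block had 4.79 times the intensity of one in the dimmest, by block medians. The 4 lowest medians were in the first column, in rows 1 to 4, and the 2 highest in the second column, in rows 7 and 8. Of the 30 brightest probes, 5 were in 1 block, in row 6 and column 3. With each level centred on its block, 21 of the 30 brightest probes were still among the 30 brightest, an alternative chosen after the block medians were seen. Milk proteins then had a median at percentile 90.1.

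**Figure D5:**
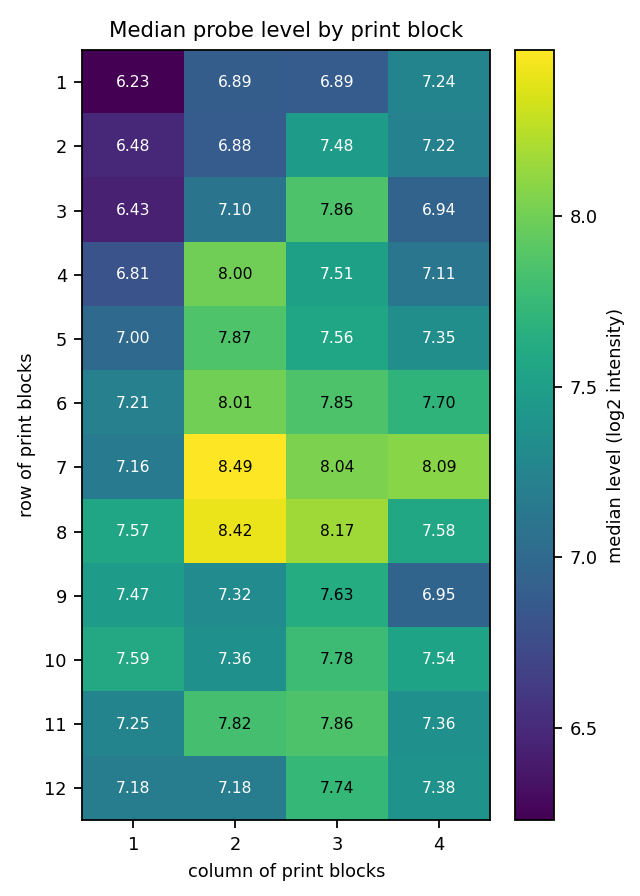
Median level (log2 intensity) of the probes in each of 48 print blocks, laid out as on the slide with 12 rows and 4 columns. Medians run from 6.23 in row 1, column 1 to 8.49 in row 7, column 2.

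Every level averages both dyes, so the difference Cy5 minus Cy3 was tested for each probe with limma on the means of the 3 pairs, in which the genotypes cancel. It addresses whether the dye changed the signal of a probe beyond the spread between pairs. Of 6733 probes tested, 2674 (39.7%) passed at an adjusted p under 0.05, 1388 (20.6%) higher in Cy5 and 1286 (19.1%) lower. The differences were small beside the range of levels: the median size was 0.09 on the log2 scale, and 22 probes exceeded 0.5. Of the called probes, 2633 had the same sign in 3 of 3 pairs. The count rests on the spread shared among probes and on the dye-swapped design: it was 6 with each probe's own spread and 0 with the 6 goats in place of pair means, where 282 probes had an unadjusted p under 0.05. Leaving out pair A gave 1633 called probes and leaving out pair B 1691, and centring arrays on the median in place of loess gave 1316 higher and 717 lower.

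The named gene with the largest difference toward Cy5 was HIPK4, a protein kinase, whose Cy5 and Cy3 levels were 13.20 and 12.15. Cy5 minus Cy3 averaged 0.93 over the 3 pairs, with an SD of 0.10 (limma adjusted p = 1.02e-07). LPL, the milk fat gene, was higher in Cy5 by 1.03, 0.63 and 0.68, on average 0.78 (limma adjusted p = 6.38e-06). APAF1, of the apoptosome, was higher by 0.64, ADAT1, which edits tRNA, by 0.61, and SF3A2, a splicing factor, by 0.57. All 3 pairs had the same sign for each.

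In the other direction, COL11A1, a cartilage collagen, had Cy5 minus Cy3 of -0.71, UTP4, of ribosome assembly, -0.59, and ZDHHC6, a palmitoyltransferase, -0.57. ERBB4, a receptor of neuregulins with a part in lactation, had -0.55, -0.56 and -0.56 in pairs A, B and C (limma adjusted p = 5.23e-06), and BASP1, a membrane protein of growing axons, -0.53. Each was lower in Cy5 in 3 of 3 pairs. Among the 30 brightest probes 25 could be tested, of which 8 were higher in Cy5 and 3 lower. Of 13 milk protein probes tested, 1 was higher and 5 lower, with a median difference of -0.06. Over all 6733 probes tested, 20.6% were higher and 19.1% lower. Whether these small groups differ from those shares was not tested.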

How the data were processed

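Mammary gland RNA (5 µg labelled per channel, per the labels' protocols) of 6 goats was read on 6 arrays. The deposited scanner files give spot intensity on a linear scale for signal and background, read with ImaGene 6.0 per the labels and 6.0.1 per the file headers. The authors' deposited log2 table of the series served to check spot numbering only. Goat and dye in the headers matched the labels in 12 of 12 files. Of 19200 spots, 16758 carry a probe. Signal mean minus background mean was averaged over duplicate spots, set to 1 where lower, and log2 transformed, with no scaling between readings. Of the probes, 6840 have 1 gene symbol in GEO's platform annotation, which can be old, 93 several and 1446 none. Of 6535 symbols, 6020 are in RefSeq's goat gene table. SDs are over the 6 goats, each the mean of its 2 readings. The 2 goats of a pair share both arrays, so these SDs mix differences between arrays with those between goats. The dye test used limma 3.58.1 in R 4.3.3 (normexp with offset 50, loess, manual and poor spots left out, probes above background in at least 6 readings, Benjamini-Hochberg). It was also run on simulated data drawn with the spread that limma had fitted. That run cannot show whether the shared spread suits each real probe. The precision is limited by the number of arrays.

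The members and gene lists were chosen with earlier results of these data known. Named are the 30 brightest genes, the 10 nearest the median, up to 3 brightest and 3 undetected per list, the 10 most variable bright genes, the 5 largest dye differences each way and the 5 widest gaps between probes. All 14 milk protein probes and some further list members (such as FASN, ACLY, XDH, HSPA5, PTPRC and CD3E) were named after their values were seen.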

Additional observations from a re-analysis of the deposited data

Results flagged for a closer look

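The lactoferrin probe (LTF) was tested for 1 goat far from the other 5, with each reading centred on its median. The High goat of pair A was highest at 9.55, against 7.48 to 8.15 in the other 5 goats, and its gap to the nearest was 0.677 of the whole range, above Dixon's critical value for 6 samples. Without that goat the probe lay at percentile 57.1 of all probes, against 61.1 with it. It was the 1 probe of 146 tested that passed, where chance flags about 1 in 20.

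Blank spots carry no probe and enter no level. Of 906, 4 were above background in at least 6 of 12 readings, the brightest at a level of 6.27 with 9 readings. Among 1536 empty spots this held for 0, and 27 were above background in at least 1 reading.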

How the results depend on the processing

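The number of undetected probes depended most on the threshold and the dye: 684 became 273 at 1 background SD, 1117 at 3, and 1407 with the Cy3 readings only, but 712 with the Cy5 readings only. Leaving out each goat in turn gave 701 to 752. Probes above background in at least 50% of the readings used numbered 6117 to 7438. Of the 30 brightest probes, 26 to 30 stayed in the 30 under the planned settings, and 21 with levels centred on their print block. Of 510 values of list positions, 484 moved by less than the SD over goats, and 26 of 30 lists stayed on the same side of percentile 50. The exceptions were the milk fat globule membrane (44.3 to 51.9), translation factors (46.4 to 51.7), hormones and enzymes (44.9 to 55.5) and testis and egg genes (48.7 to 55.8).

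The dye test called 2674 probes, 1770 with print-tip loess, and 1633 to 3225 with each pair left out, 1633 without pair A and 1691 without pair B. It called 6 with each probe's own spread, and 0 with 6 goats, whose spread by construction includes differences between arrays. Of 118 alternative values of the 10 named dye differences, 99 kept the call, 19 lost it and 0 reversed. No paired analysis was possible because the levels come from no test. The dye test is itself paired, since it uses the means of the pairs. Signal near background limits the order of dim probes.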

Other observations

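Gene groups not described above lay near or above the middle of the ranking. Glycolysis had a median at percentile 60.1 over 14 probes, led by PFKL, phosphofructokinase of liver type (11.35 ± 0.15), while GAPDH had 9.15 and LDHB 5.29. Heat shock and oxidative stress genes had a median at percentile 58.5 over 27 probes. Of these, 26 (96.3%) were above background in at least 6 readings, against 80.7% of all probes. HSPD1, the mitochondrial chaperonin, led them at 12.82 ± 0.13, followed by GPX1, glutathione peroxidase (10.11 ± 0.38), and PRDX1, a peroxiredoxin (9.88 ± 0.05). Single readings of PRDX1 ran from 9.14 to 10.6. MHC genes had a median at percentile 76.2 over 10 probes, from BOLA-DMA at the top to BOLA-DQA1 at 4.94 with 2 readings above background. Genes of the cytoskeleton and junctions had 5 of 19 probes in the brightest 10%, among them ACTB, beta-actin, at 12.64 ± 0.27, whereas ACTG1, gamma-actin, had 8.70. Single readings of ACTB ran from 10.97 to 14.12.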
